A study of Homo sapiens with 9 samples.

Results

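The Notch genes described here are the receptors NOTCH1, NOTCH2 and NOTCH3, the ligands JAG1, JAG2, DLL1 and DLL3, the DNA-binding factor RBPJ and the target genes HES1 and HEY1. They were taken by gene symbol from an expression table of 22295 rows, and all 10 symbols were found in it. After a filter at a mean of 0.1 FPKM (sequenced fragments scaled to transcript length and to library size) over all libraries, 9 of the 10 were among the 15551 genes tested, and NOTCH3 was not. U251, an established human glioblastoma cell line, was infected with lentivirus carrying an M-cherry marker and a short hairpin RNA. The hairpin was directed against PTBP1, an RNA-binding protein that represses neuronal exons, or against luciferase as the control. RNA was sequenced in 3 libraries each of sh-Luci-3d (control hairpin, 3 days), sh-Ptbp1-3d (PTBP1 hairpin, 3 days) and sh-Ptbp1-7d (PTBP1 hairpin, 7 days). The study's methods place infected cells in a neuronal induction medium with forskolin, an activator of adenylyl cyclase, and dorsomorphin, an inhibitor of BMP receptors and AMPK, from the second day after infection. No sh-Luci library at 7 days was analysed here, so between the PTBP1 hairpin groups the time since infection and the time in this medium cannot be told apart, and between sh-Ptbp1-7d and the control the hairpin cannot be told apart from either.

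Notch signalling passes between touching cells. A ligand of the Jagged or Delta-like kind on one cell binds a Notch receptor on its neighbour, the receptor is cut by ADAM proteases and then by γ-secretase, and its intracellular part enters the nucleus, joins RBPJ and switches on genes such as HES1 and HEY1. In the developing nervous system this pathway is known for keeping progenitors from becoming neurons, in glioma it is studied for its part in stem-like cells, and without the receptor fragment RBPJ holds the same genes down through corepressors.

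RBPJ recognises the letters TGGGAA, and the promoters of the HES family show how these sit before a target gene. In windows of 250 bases before each RefSeq start (GRCh38.p14, both strands), TGGGAA was present in 20.8% of 35116 promoters and the longer form GTGGGAA, which contains it, in 5.43%. HES1 held 2 copies of TGGGAA. The windows of NOTCH1, NOTCH2, NOTCH3, JAG1 and JAG2 held 0, and of 5 RBPJ windows 1 held 2 copies, 1 on each strand. For these letters 7 of the 10 genes were matched to the RefSeq table, and DLL1, DLL3 and HEY1 were not. The stretch before HES1 (chr3:194135898-194136137, plus strand) is shown first, because it holds both copies of TGGGAA. The other lines set 30 bases around these copies beside HES4 (chr1:1000156-1000185, minus strand) and HES5 (chr1:2530326-2530355, minus strand), paralogs whose levels differed widely in these cells. The word pair in the lines means only these 2 copies. Other forms of the RBPJ site, and the arrangement of a paired site, were not searched. Capitals mark TGGGAA.
HES1 upstream: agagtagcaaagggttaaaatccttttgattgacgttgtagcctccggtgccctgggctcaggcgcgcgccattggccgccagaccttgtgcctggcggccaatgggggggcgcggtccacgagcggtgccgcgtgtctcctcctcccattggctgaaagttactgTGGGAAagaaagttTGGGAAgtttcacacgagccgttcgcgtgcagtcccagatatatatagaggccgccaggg
HES1 pair: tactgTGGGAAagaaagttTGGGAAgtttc
HES4: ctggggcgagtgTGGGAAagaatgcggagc
HES5: ggccgcggagtgTGGGAAcggccgcggcgc

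The 2 copies in HES1 began 84 and 70 bases before the start and read in the same direction. HES4 held 1 copy, HES5 and HEYL 2 each, HEY2 1, and HES6 and NRARP 0. A pair of other motifs, bound by HES and HEY proteins themselves, were also searched. CACNAG stood at 3 places before HES1, at 1 place before NOTCH3 and at 1 place in 1 of the RBPJ windows. It was present in 32.0% of all promoters. CACGTG, present in 6.34% of all promoters, was found in 0 of the windows of the 7 matched genes. These are matches of letters in a window and no record of binding.

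The targeted gene was measured first. PTBP1 stood at 111, 112 and 124 FPKM in sh-Luci-3d, at 66.2, 64.4 and 61.0 in sh-Ptbp1-3d and at 49.8, 50.7 and 51.0 in sh-Ptbp1-7d. The 3 groups did not overlap, and the mean of sh-Ptbp1-3d was 55.2% of the control mean and that of sh-Ptbp1-7d 43.6%. Changes below are log2 fold changes of FPKM + 0.1 from limma, with adjusted p by Benjamini-Hochberg over the 15551 genes. The added 0.1 understates changes of weakly expressed genes. A gene is said to have risen or fallen where it passed a false discovery rate (FDR) of 0.05 at 3 days or 0.01 in both comparisons with sh-Ptbp1-7d, with a fold above 2 noted beside it. The study's methods give these thresholds for the comparison at 3 days and for that of both PTBP1 hairpin groups, and 0.01 was chosen here for sh-Ptbp1-7d against the control. Nothing in the labels says that the libraries of a group came from separate cultures, so p-values measure the spread between these libraries, which may be technical.

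In each group at 3 days 1 library stood apart. On the second principal component of all tested genes, sh-Luci-3d replicate 3 (17.7) lay with the sh-Ptbp1-3d libraries (2.61 to 31.1) and away from its 2 companions (-30.4 and -27.2), and results at 3 days are therefore given with and without it. On the same component sh-Ptbp1-3d replicate 3 (31.1) lay away from its companions (7.09 and 2.61). It held nearly all the signal of the neuronal genes STMN2 (0, 0 and 11.5 FPKM in sh-Ptbp1-3d replicates 1 to 3), DCX (0.0346, 0.0345 and 2.15) and ELAVL3 (0, 0 and 1.47) and of the proneural factor NEUROG2 (0.0230, 0.101 and 0.591), which were named after their values were seen. Without it, 0 Notch genes passed at 3 days, against 0.0129% of all genes. From sh-Ptbp1-3d to sh-Ptbp1-7d DLL1, HEY1 and JAG1 passed without it, 3 of 9 against 28.8% of all genes. Total FPKM was 367412 to 404922 per library, and read depth is unknown. Vimentin (VIM) and CD44, markers of glial and mesenchymal tumour cells, were abundant in every library, at 1094 FPKM or more and 60.4 FPKM or more. GFAP, the astrocytic filament, was low, with 1.15 FPKM as its highest value. Endothelial markers summed to 0.167 to 0.952 FPKM and immune cell markers to 0.614 to 1.15 FPKM, with 2 of 6 immune markers at 0 throughout. In bulk RNA, fewer cells of a type and less RNA per cell cannot be told apart.

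**Figure D1:**
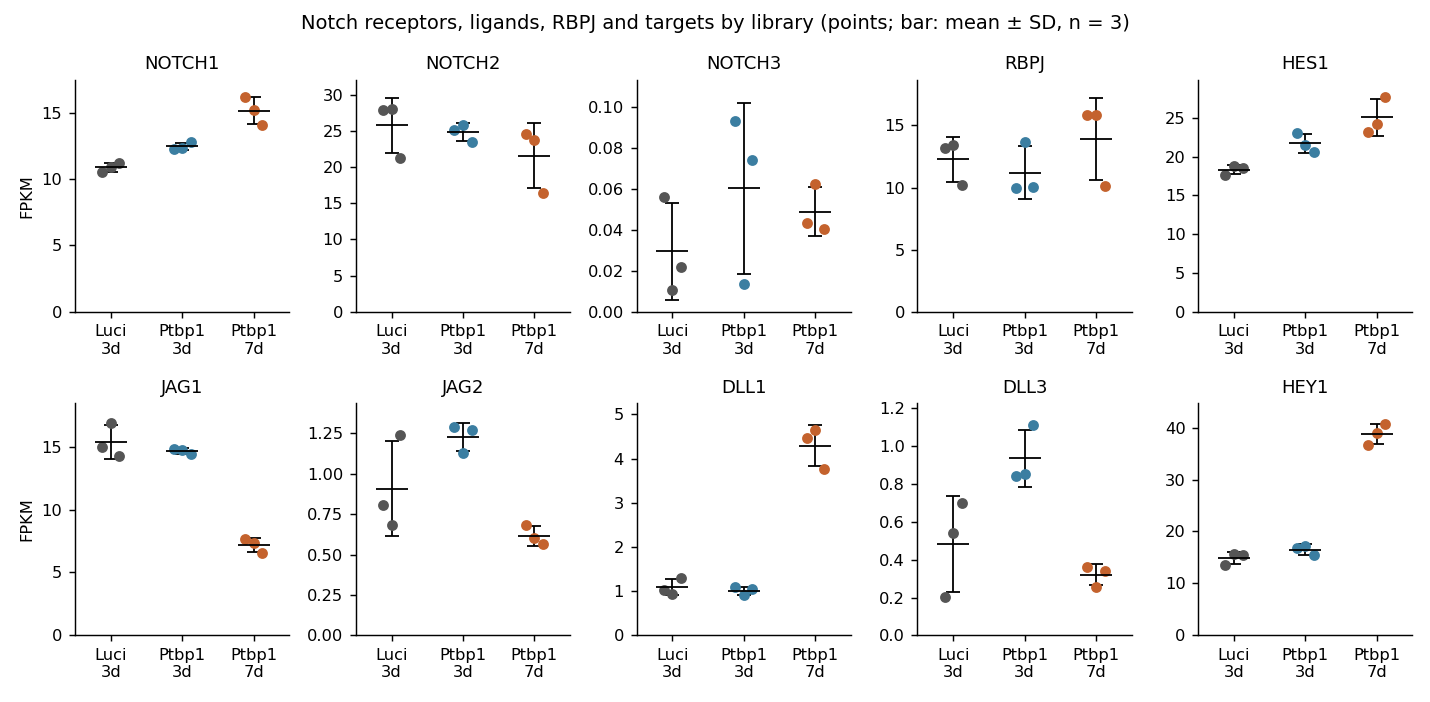
FPKM (vertical axes, each from 0) of the 10 Notch genes in the 9 libraries, with sh-Luci-3d on the left, sh-Ptbp1-3d in the middle and sh-Ptbp1-7d on the right of each panel. Points are libraries and bars the mean ± SD (n = 3). DLL1 and HEY1 in sh-Ptbp1-7d lie above all other libraries and JAG1 below them, while NOTCH2 and RBPJ overlap across groups.

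At 3 days the Notch genes showed no change past the threshold. Of the 9 tested, 0 passed the FDR in limma, where 0.0322% of all genes (5) did, and 3 had an unadjusted p below 0.05, against 7.24% of all genes. Their adjusted p ran from 0.616 to 0.969, and their median change was 0.15 against 0.01 over all genes. The study reports far more changed genes for the same comparison, under the same FDR and with a fold threshold besides. The limma fit thus called fewer genes than the study's own test, and the lack of calls among the Notch genes describes the limma fit only. NOTCH1, DLL3 and HES1 were higher in every sh-Ptbp1-3d library than in every control library, a separation seen in 10.8% of all genes. The 95% interval of the change was 0.01 to 0.37 for NOTCH1, 0.05 to 0.44 for HES1 and 0.19 to 1.67 for DLL3, so for DLL3 a rise of more than 2-fold was within the interval. For the other 6 tested genes the interval reached no further than -0.56 (RBPJ) and 0.91 (JAG2). Without sh-Luci-3d replicate 3, 993 genes passed the FDR in place of 5, and the Notch genes still numbered 0, the lowest adjusted p being 0.063 for DLL3 and 0.0739 for JAG2.

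The 5 largest of the 9 changes from sh-Ptbp1-3d were those of the 4 ligands and HEY1, and NOTCH1, NOTCH2, RBPJ and HES1 did not pass in that comparison. From sh-Ptbp1-3d to sh-Ptbp1-7d, DLL1 and HEY1 rose and JAG1, JAG2 and DLL3 fell, 5 of 9, where 35.8% of all genes passed (20.3% higher and 15.5% lower). Of these 5, all but JAG2 also exceeded a fold of 2, 4 of 9 against 14.2% of all genes. Groups did not overlap for 7 of the 9, against 62.3% of all genes, and the median change was 0.20 against 0.09 over all genes. Against sh-Luci-3d, NOTCH1, DLL1, HES1 and HEY1 rose and JAG1 fell, 5 of 9 with 35.6% of all genes (20.6% higher and 15% lower), and DLL1, HEY1 and JAG1 exceeded a fold of 2 with 14.6% of all genes. In that comparison groups did not overlap for 5 of the 9, against 55.9% of all genes, and the median change was 0.16 against 0.10. The comparisons with sh-Ptbp1-3d and with sh-Luci-3d share the sh-Ptbp1-7d libraries and are not independent of each other.

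**Figure D2:**
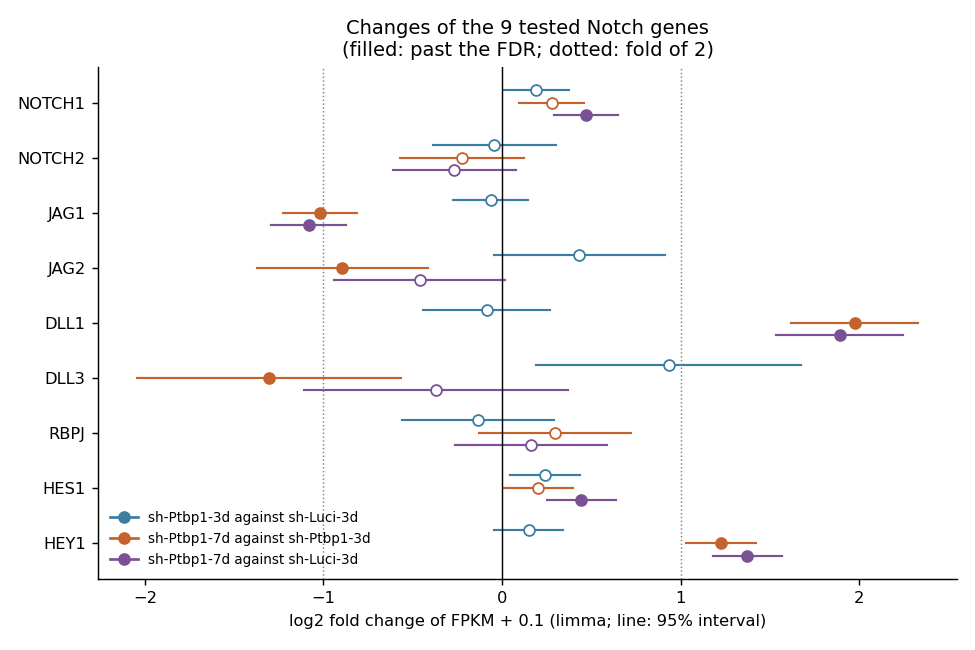
Log2 fold change of FPKM + 0.1 (horizontal axis) of the 9 tested Notch genes in the 3 comparisons, with 95% intervals from limma as lines. Filled points passed the FDR and dotted lines mark a fold of 2. The intervals of DLL1 and HEY1 lie wholly above 1 in both comparisons with sh-Ptbp1-7d, and those of JAG1 wholly below 0.

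Delta-like 1 (DLL1), a ligand that neural progenitors present to their neighbours, showed the largest change of the Notch genes. It was listed at 1.04, 0.941 and 1.29 FPKM in sh-Luci-3d and at 1.09, 0.914 and 1.05 in sh-Ptbp1-3d. In sh-Ptbp1-7d it stood at 4.47, 4.65 and 3.77. Every sh-Ptbp1-7d library was thus far above the other 6, whose groups overlapped each other. The mean of sh-Ptbp1-7d, 4.30 ± 0.463 (SD, n = 3), was 423% of the sh-Ptbp1-3d mean, a log2 change of 1.98 (SE 0.161, limma adjusted p = 3.34e-06), and 395% of the control mean (log2 change 1.89, adjusted p = 4.41e-06). The gene lies on the minus strand at chr6:170282206-170306565 (GRCh38, GENCODE 29), inside a span shared with FAM120B on the other strand but with no exon in common.

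Jagged 1 (JAG1), a ligand widely expressed in glia and vessel walls, was by far the most abundant of the 4 ligands at 3 days and changed the other way. Its values were 15.0, 16.9 and 14.3 FPKM in sh-Luci-3d and 14.8, 14.8 and 14.4 in sh-Ptbp1-3d, against 7.68, 7.35 and 6.58 in sh-Ptbp1-7d. The sh-Ptbp1-7d libraries did not reach any of the others. The log2 change was -1.02 from sh-Ptbp1-3d (SE 0.094, adjusted p = 8.28e-06) and -1.08 from sh-Luci-3d (adjusted p = 5.19e-06), so that the level after 7 days was 49.1% and 46.9% of those means. The first of these changes sits at the fold threshold, and was -0.96 without sh-Ptbp1-7d replicate 3 and -0.92 with TPM. An exon of JAG1 (chr20:10637684-10673999, minus strand) overlaps the antisense RNA AL050403.2 in the annotation. Whether the counting used strand is not given in the sources used here, so reads of the pair may not be separable.

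The other two of the 4 ligands were weakly expressed and moved less clearly. JAG2, the second Jagged ligand, was at 0.807, 0.683 and 1.24 FPKM in sh-Luci-3d, at 1.29, 1.13 and 1.27 in sh-Ptbp1-3d and at 0.683, 0.601 and 0.564 in sh-Ptbp1-7d. DLL3, a divergent Delta-like protein known to act inside the cell rather than to activate receptors on neighbours, was at 0.205, 0.542 and 0.699, then 0.842, 0.854 and 1.11, then 0.361, 0.256 and 0.342. For both genes the sh-Ptbp1-3d libraries were above all sh-Ptbp1-7d libraries, while the control libraries spread widely and overlapped sh-Ptbp1-7d.

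From sh-Ptbp1-3d to sh-Ptbp1-7d, JAG2 fell by 0.89 on the log2 scale (SE 0.217, adjusted p = 0.00582) and DLL3 fell by 1.30 (SE 0.335, adjusted p = 0.00789). Both calls were lost when any 1 of the 6 libraries was left out, with adjusted p of 0.0117 to 0.0230 for JAG2 and 0.0172 to 0.0326 for DLL3. Against sh-Luci-3d neither passed the threshold, with changes of -0.46 (95% interval -0.94 to 0.02, adjusted p = 0.101) for JAG2 and -0.37 (95% interval -1.11 to 0.37, adjusted p = 0.385) for DLL3. An exon of JAG2 overlaps the processed transcript AL512356.1 on the same strand, and reads there cannot be assigned to 1 of the pair with certainty.

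The opposite moves of DLL1 and JAG1 altered the balance among these 4 ligands. DLL1 was 4.94% to 7.37% of the summed FPKM of JAG1, JAG2, DLL1 and DLL3 in the control libraries, 5.18% to 6.02% in sh-Ptbp1-3d and 33.5% to 36.2% in sh-Ptbp1-7d. The sum itself was 17.0 to 19.0 FPKM, 17.6 to 18.1 FPKM and 11.3 to 13.2 FPKM in the same order. JAG1 remained the most abundant of the 4 at 7 days, at 1.58 to 1.74 times DLL1, compared with 11.1 to 17.9 times in the 6 libraries at 3 days. For the share and the sum, sh-Ptbp1-7d did not overlap either group at 3 days, with an exact permutation p of 0.1 (two-sided, 3 against 3), the smallest this design allows and 0.15 after adjustment over 12 such comparisons. In the wider list of 8 ligands the largest other entry was DNER, an atypical Notch ligand named after its values were seen. It was at 11.96 to 14.7 FPKM in sh-Luci-3d, 14.9 to 15.4 in sh-Ptbp1-3d and 11.2 to 13.6 in sh-Ptbp1-7d. DNER was above JAG1 in every sh-Ptbp1-7d library and, narrowly, in every sh-Ptbp1-3d library, and below JAG1 in every sh-Luci-3d library. Its change from sh-Ptbp1-3d to sh-Ptbp1-7d did not pass (-0.32, adjusted p = 0.0260). Of the summed FPKM of all 8, 25.1 to 26.1 in sh-Ptbp1-7d, DLL1 made up 14.5% to 18.6% there and 2.73% to 4.28% in the 6 libraries at 3 days. The share of the 4 was 5.69% ± 0.447 in sh-Ptbp1-3d and 6.13% ± 1.21 in sh-Luci-3d, with an exact p of 0.7.

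Among the receptors, NOTCH2 was the most abundant, followed by NOTCH1. NOTCH1 was at 10.6, 10.9 and 11.3 FPKM in sh-Luci-3d, at 12.3, 12.4 and 12.8 in sh-Ptbp1-3d and at 16.2, 15.2 and 14.1 in sh-Ptbp1-7d. The 3 groups were separate from each other and in the order control, 3 days, 7 days. The rise from sh-Luci-3d to sh-Ptbp1-7d was 0.47 on the log2 scale (SE 0.082, adjusted p = 0.00073), a fold of 1.39, while the step from sh-Ptbp1-3d to sh-Ptbp1-7d (0.28, 95% interval 0.10 to 0.46, adjusted p = 0.0158) missed the threshold.

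NOTCH2 was at 28.0, 28.0 and 21.3 FPKM in sh-Luci-3d, at 25.2, 25.8 and 23.4 in sh-Ptbp1-3d and at 24.6, 23.7 and 16.4 in sh-Ptbp1-7d. The groups overlapped, with the lowest value of each group in its replicate 3. No comparison passed, and the changes were -0.22 from sh-Ptbp1-3d (95% interval -0.57 to 0.12, adjusted p = 0.261) and -0.27 from sh-Luci-3d (95% interval -0.61 to 0.08, adjusted p = 0.182). The human NOTCH2NL genes, partial copies of NOTCH2 that share sequence with it, were listed separately, with 4 genes in the table and 0 past the FDR in limma in each comparison (1, 2 and 0 at an unadjusted p below 0.05). Over all genes 0.0322%, 35.8% and 35.6% passed, and 7.24%, 56.3% and 56.1% had such an unadjusted p. How reads were split between the NOTCH2NL genes and NOTCH2 is not given in the sources used here, so the levels of both are uncertain.

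NOTCH2 FPKM was 1.89 to 2.65 times NOTCH1 FPKM in sh-Luci-3d, 1.83 to 2.09 times in sh-Ptbp1-3d and 1.16 to 1.56 times in sh-Ptbp1-7d. The ratios of sh-Ptbp1-7d did not overlap those of either other group (exact p = 0.1, adjusted 0.15), and both groups at 3 days overlapped (exact p = 0.3). NOTCH3, a receptor best known from vessel mural cells, was barely detected, at 0.0104 to 0.0561 FPKM in sh-Luci-3d, 0.0133 to 0.0934 in sh-Ptbp1-3d and 0.0405 to 0.0625 in sh-Ptbp1-7d, with all groups overlapping. In a fit without the filter its adjusted p was 0.854, 0.945 and 0.570 for the 3 comparisons in the order used above. NOTCH4, an endothelial receptor outside the 10, was at 0.0627 to 0.131 FPKM in the 6 libraries at 3 days and 0.169 to 0.254 in sh-Ptbp1-7d (adjusted p = 0.0878 from sh-Ptbp1-3d and 0.0450 from sh-Luci-3d).

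RBPJ, through which all 4 receptors act on DNA, was at 13.2, 13.5 and 10.2 FPKM in sh-Luci-3d, at 9.93, 13.7 and 10.03 in sh-Ptbp1-3d and at 15.8, 15.8 and 10.1 in sh-Ptbp1-7d. The groups overlapped, and the range within each group was wider than any step between group means. The change from sh-Ptbp1-3d to sh-Ptbp1-7d was 0.30 (95% interval -0.13 to 0.72, adjusted p = 0.224) and that from sh-Luci-3d 0.16 (95% interval -0.26 to 0.59, adjusted p = 0.507).

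The 2 targets differed in size of change. HEY1, a transcriptional repressor of the HES-related family, was at 13.5, 15.7 and 15.5 FPKM in sh-Luci-3d and at 16.9, 17.3 and 15.4 in sh-Ptbp1-3d. It reached 36.7, 39.0 and 40.7 in sh-Ptbp1-7d, where every library was more than double any other. This was 235% of the sh-Ptbp1-3d mean (log2 change 1.23, SE 0.088, adjusted p = 1.37e-06) and 260% of the control mean (log2 change 1.37, adjusted p = 5.59e-07).

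HES1, a repressor of proneural genes that is often used as a readout of Notch, was at 17.6, 18.8 and 18.6 FPKM in sh-Luci-3d, at 23.1, 21.5 and 20.6 in sh-Ptbp1-3d and at 23.2, 24.2 and 27.7 in sh-Ptbp1-7d. The control libraries were the lowest 3, and the lowest sh-Ptbp1-7d library lay just above the highest sh-Ptbp1-3d library. The change from sh-Luci-3d to sh-Ptbp1-7d was 0.44 (SE 0.088, adjusted p = 0.0017, a fold of 1.36), and that from sh-Ptbp1-3d, 0.20, did not pass (95% interval 0.01 to 0.40, adjusted p = 0.0762). HEY1 FPKM was 0.766 to 0.836 times HES1 FPKM in the control libraries, 0.731 to 0.806 times in sh-Ptbp1-3d and 1.47 to 1.61 times in sh-Ptbp1-7d, so the order of the targets was inverted in each sh-Ptbp1-7d library (exact p = 0.1 against either group, adjusted 0.15).

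**Figure D3:**
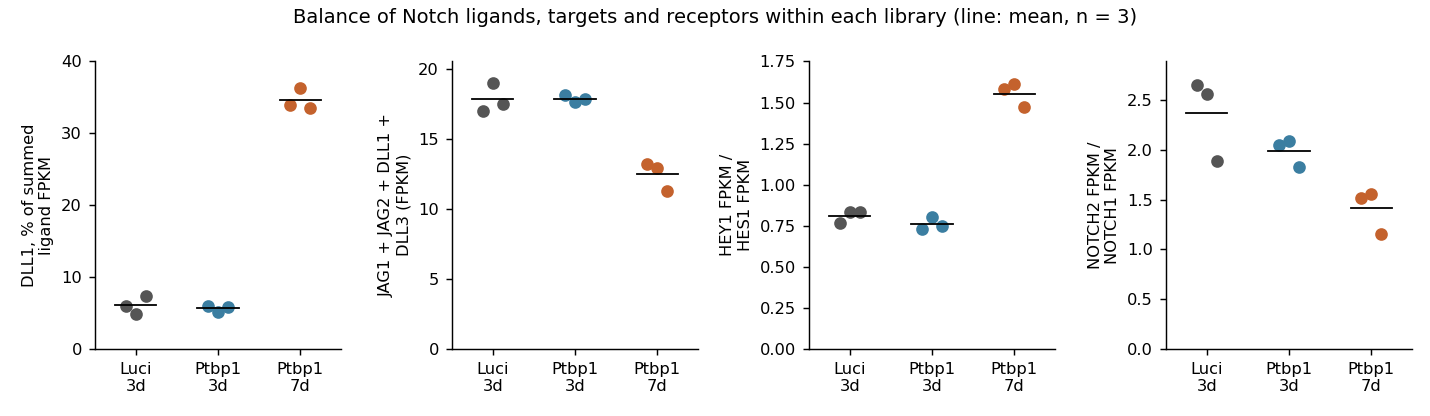
From left to right, DLL1 as a percentage of the summed FPKM of 4 ligands, that sum in FPKM, and the FPKM ratios HEY1 to HES1 and NOTCH2 to NOTCH1, for each of the 9 libraries (points) with group means as lines. DLL1's share of 33.5% to 36.2% and the HEY1 to HES1 ratio of 1.47 to 1.61 in sh-Ptbp1-7d stand apart from both groups at 3 days.

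Ranked by mean FPKM, which is scaled to transcript length, NOTCH2 led in sh-Luci-3d (25.7 ± 3.85) and in sh-Ptbp1-3d (24.8 ± 1.24), and HES1 followed in both without overlap. In sh-Ptbp1-7d HEY1 led (38.8 ± 1.98), clear of HES1 (25.05 ± 2.37), which overlapped NOTCH2 (21.6 ± 4.52). The next pair, NOTCH1 and RBPJ, overlapped in every group. DLL1, JAG2 and DLL3 were neighbours below 2 FPKM in both groups at 3 days, where DLL1 overlapped JAG2 and JAG2 overlapped DLL3 in sh-Luci-3d, and DLL1 overlapped DLL3 in sh-Ptbp1-3d. In sh-Ptbp1-7d the 4 ligands were in the order JAG1, DLL1, JAG2, DLL3 with no overlap between neighbours.

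By Pearson correlation of log2 values over the 9 libraries, the genes most like DLL1 were FKBP10, RHOBTB2 and CALR (r = 0.996 for each, among 11339 genes averaging 1 FPKM or more), and 1879 genes had an r above 0.9 with it. The gene most like DLL3, the one with the largest fall, was ZMAT5 (r = 0.965), with PDCD2L (0.962) and ENOSF1 (0.944) next, and only 6 genes had an r above 0.9. These 9 libraries fall into 3 groups, so a high r largely describes a shared step between groups.

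The rest of the pathway was described by lists of 65 further genes, 56 of which were tested. At 3 days 0 passed in limma, 9 of the 56 (16.1%, against 7.24% of all genes) had an unadjusted p below 0.05, and the median change was 0.08. Without sh-Luci-3d replicate 3, 5 rose and 0 fell (8.93%, against 6.37% of all genes), namely HES6 and NRARP and, named after their values were seen, CTBP1, NUMBL and RFNG. From sh-Ptbp1-3d to sh-Ptbp1-7d, 16 rose and 7 fell, 41.1% of those tested against 35.8% of all genes. The split was 20 up and 5 down with TPM, and 17 up and 13 down after correction for GC content and length. Of the 56, 7 rose and 2 fell by more than 2-fold, where 14.2% of all genes passed both thresholds. Against sh-Luci-3d, 18 rose and 5 fell, 41.1% of those tested against 35.6% of all genes, and the split was 21 and 5 with TPM, 15 and 6 with median-ratio scaling, 16 and 7 with quantile scaling and 18 and 9 after the GC and length correction. The median change was 0.19 and 0.25 in these comparisons, beside 0.09 and 0.10 over all genes.

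**Figure D4:**
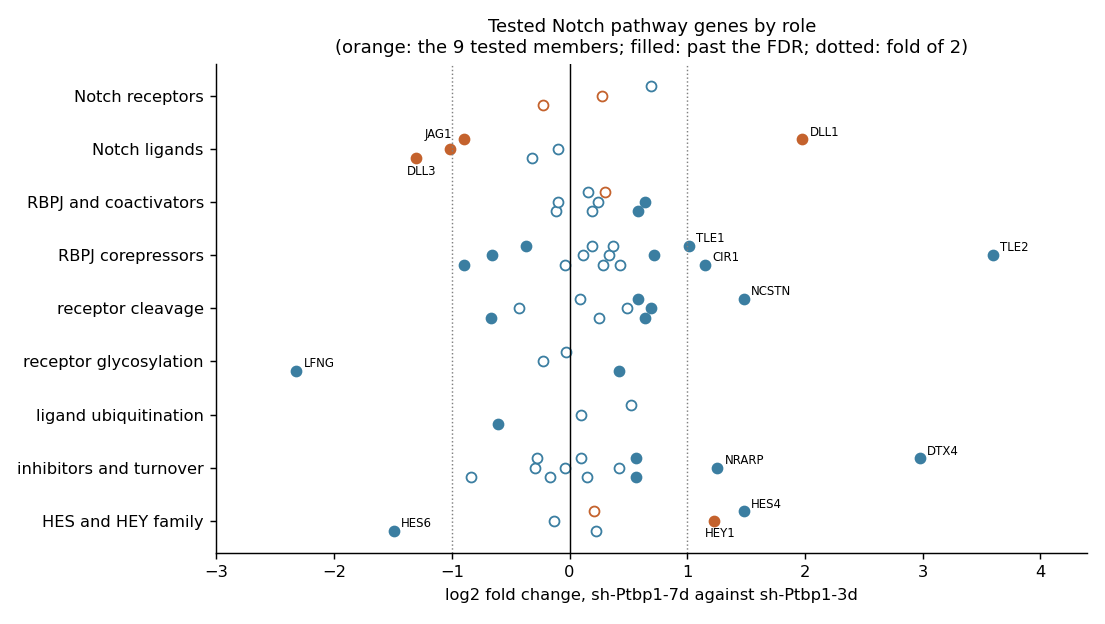
Log2 fold change from sh-Ptbp1-3d to sh-Ptbp1-7d (horizontal axis) of every tested Notch pathway gene, in rows by role. Orange points are the 9 tested genes of the main set, filled points passed the FDR, and names are given for those also past a fold of 2, which is marked by dotted lines. TLE2 (3.60) and DTX4 (2.98) lie farthest to the right and LFNG (-2.32) farthest to the left.

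In the HES and HEY family, which holds HES1 and HEY1 among its 10 genes, 6 were tested. From sh-Ptbp1-3d to sh-Ptbp1-7d 2 rose and 1 fell, with a median change of 0.22. Over all genes 20.3% rose and 15.5% fell, with a median of 0.09. HES4, a HES1-like repressor, was the most abundant, at 28.1, 37.1 and 59.4 FPKM in sh-Luci-3d, at 44.8, 40.2 and 49.0 in sh-Ptbp1-3d and at 114, 122 and 138 in sh-Ptbp1-7d. All sh-Ptbp1-7d libraries were above the rest, and the control libraries spread over the whole sh-Ptbp1-3d range (log2 change from sh-Ptbp1-3d 1.48, SE 0.215, adjusted p = 2.23e-04).

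HES6, an atypical member known to oppose HES1 and to favour neuronal differentiation, was at 9.12, 8.01 and 17.6 FPKM in sh-Luci-3d, at 18.3, 16.2 and 17.3 in sh-Ptbp1-3d and at 7.25, 6.17 and 5.02 in sh-Ptbp1-7d. It fell by 1.49 on the log2 scale from sh-Ptbp1-3d (SE 0.246, adjusted p = 5.32e-04), and its change from sh-Luci-3d did not pass (-0.83, adjusted p = 0.0166), though it passed in 3 alternatives, without sh-Luci-3d replicate 2 (-1.05, adjusted p = 0.00565), with quantile normalization (-0.93, adjusted p = 0.00899) and with the GC and length correction (-1.04, adjusted p = 2.37e-04). In sh-Luci-3d replicate 3, HES6, HES4, JAG2, DLL1 and DLL3 each had the highest value of the control group; the part of this library in the control spread of these genes was not tested further. HES5 was listed at 0 in 7 libraries and at no more than 0.160 FPKM in the others, and HEYL at 0 in all 9. HEY2 was at 0.107 to 0.535 FPKM with overlapping groups (adjusted p = 0.665 from sh-Ptbp1-3d to sh-Ptbp1-7d).

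NRARP, a direct Notch target whose product feeds back to limit the receptor fragment, was ordered like NOTCH1. It was at 0.796, 0.799 and 0.971 FPKM in sh-Luci-3d, at 1.42, 1.41 and 1.57 in sh-Ptbp1-3d and at 3.58, 3.50 and 3.85 in sh-Ptbp1-7d. The 3 groups did not overlap. It rose from sh-Ptbp1-3d to sh-Ptbp1-7d (log2 change 1.26, SE 0.14, adjusted p = 3.28e-05) and from sh-Luci-3d (1.97, adjusted p = 1.23e-06). At 3 days the change was 0.72 (adjusted p = 0.271), and without sh-Luci-3d replicate 3 it was 0.80 and passed (adjusted p = 0.0133). DTX4, a Deltex-type ubiquitin ligase of the same list of inhibitors and turnover genes, rose from 0.1001 ± 0.109 to 1.36 ± 0.287 FPKM (log2 change 2.98, adjusted p = 7.98e-05). In that list 4 of 12 tested genes rose and 0 fell from sh-Ptbp1-3d to sh-Ptbp1-7d, with a median change of 0.12. Over all genes 20.3% rose and 15.5% fell, with a median of 0.09.

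Corepressors that join RBPJ or the HES proteins moved in both directions, 4 of 14 up and 3 down from sh-Ptbp1-3d to sh-Ptbp1-7d, with a median change of 0.31. Over all genes 20.3% rose and 15.5% fell, with a median of 0.09. TLE2, a Groucho-type corepressor, was at 0.324, 0.198 and 0.561 FPKM in sh-Luci-3d, at 0.383, 0.398 and 0.679 in sh-Ptbp1-3d and at 6.28, 6.68 and 7.58 in sh-Ptbp1-7d. The sh-Ptbp1-7d libraries were far above the other 6 (log2 change 3.60, SE 0.289, adjusted p = 3.02e-06). Its relative TLE1 rose from 14.5 ± 0.510 to 29.4 ± 2.33 FPKM (1.01, adjusted p = 3.02e-06), and CIR1, which binds RBPJ, from 6.81 ± 0.172 to 15.3 ± 0.226 FPKM (1.15, adjusted p = 1.11e-06). Beside the same 20.3% and 15.5% of all genes, of 8 genes for RBPJ and its coactivators 2 rose and 0 fell, with a median of 0.22. These were MAML1, the Mastermind protein of the active complex (0.64, adjusted p = 1.75e-04), and the acetyltransferase EP300 (0.58, adjusted p = 0.00275). EP300 no longer passed without either of sh-Ptbp1-7d replicates 1 and 2 or without sh-Ptbp1-3d replicate 3 (adjusted p 0.0134 to 0.0151).

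The genes that cut the receptor were led by NCSTN, the substrate-binding subunit of γ-secretase. It was at 53.4, 55.0 and 46.4 FPKM in sh-Luci-3d, at 55.9, 57.9 and 54.1 in sh-Ptbp1-3d and at 153, 154 and 162 in sh-Ptbp1-7d. Every sh-Ptbp1-7d library was well above the others (log2 change from sh-Ptbp1-3d 1.48, SE 0.080, adjusted p = 1.77e-07). APH1A, another γ-secretase subunit, rose by 0.69 (adjusted p = 3.29e-05). PSENEN, a further subunit named after its values were seen, went the other way. Its change from sh-Ptbp1-3d did not pass (-0.43, adjusted p = 0.0139), and it fell from sh-Luci-3d (-0.67, adjusted p = 0.00101). Against sh-Luci-3d 5 genes of this list rose and 2 fell, beside 20.6% and 15% of all genes. Of the 9 genes of receptor cleavage 4 rose and 1 fell (FURIN, -0.67) from sh-Ptbp1-3d to sh-Ptbp1-7d, with a median change of 0.49. Over all genes 20.3% rose and 15.5% fell, with a median of 0.09.

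Among sugar-modifying enzymes, LFNG, the Fringe enzyme that biases receptors toward Delta-like ligands, was at 1.86, 1.57 and 2.06 FPKM in sh-Luci-3d, at 2.79, 2.20 and 2.53 in sh-Ptbp1-3d and at 0.536, 0.325 and 0.418 in sh-Ptbp1-7d. It fell by 2.32 on the log2 scale from sh-Ptbp1-3d (SE 0.193, adjusted p = 3.92e-06) and by 1.88 from sh-Luci-3d (adjusted p = 1.71e-05), with no overlap. POGLUT1, which adds glucose to the receptor, rose by 0.42 (adjusted p = 0.00859), making 1 up and 1 down among 4 tested. MIB1, the ubiquitin ligase that primes ligands for signalling, fell by 0.60 (adjusted p = 0.00801), and the other 2 tested genes of its list did not pass. Beside both lists, 20.3% of all genes rose and 15.5% fell from sh-Ptbp1-3d to sh-Ptbp1-7d. The call of POGLUT1 was lost when any 1 of the 6 libraries was left out (adjusted p 0.0160 to 0.0397), and that of MIB1 in 5 of 6 cases (adjusted p 0.00708 to 0.0296 over the 6).

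**Figure D5:**
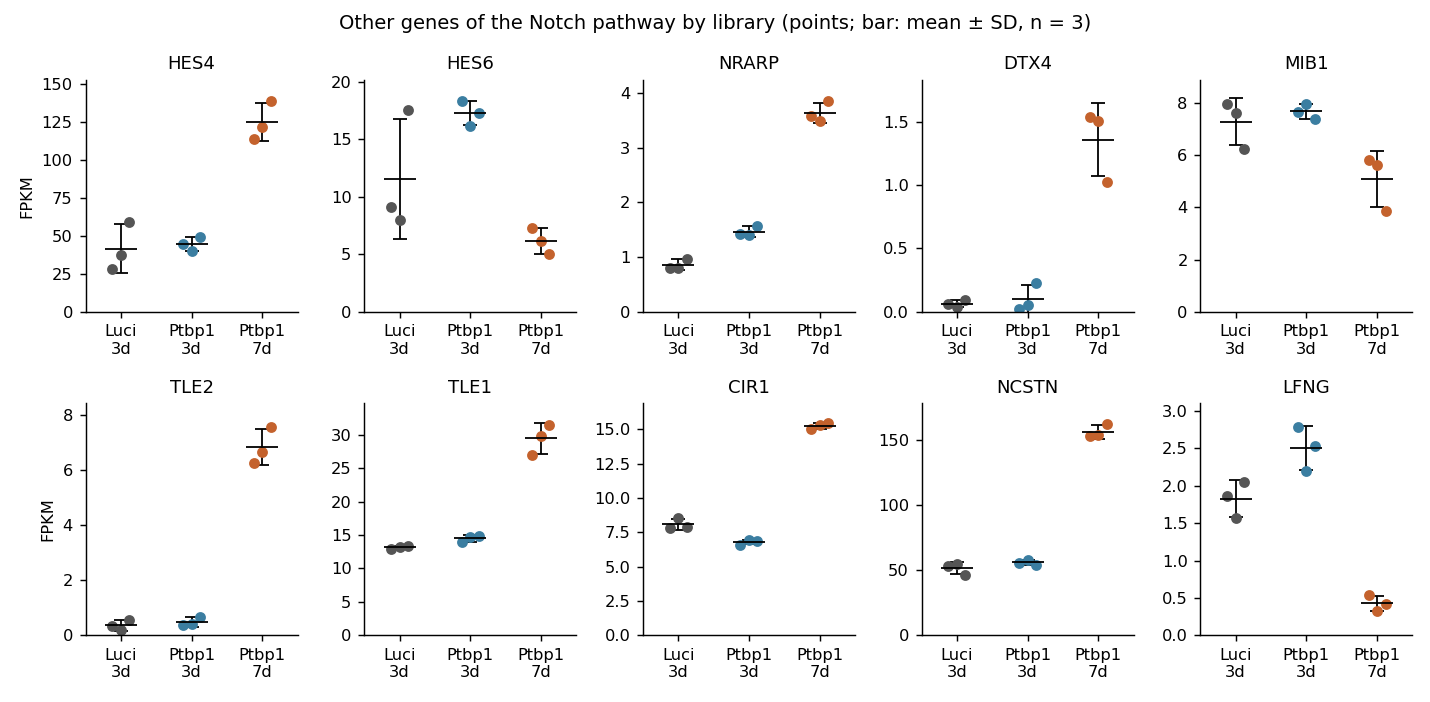
FPKM (vertical axes, each from 0) of 10 further Notch pathway genes in the 9 libraries, with sh-Luci-3d on the left, sh-Ptbp1-3d in the middle, sh-Ptbp1-7d on the right and the mean ± SD (n = 3) as bars. HES4, NRARP, DTX4, TLE2, TLE1, CIR1 and NCSTN are highest in sh-Ptbp1-7d, and HES6, MIB1 and LFNG have their lowest means there.

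Of the proneural, DLX and ID factors, genes that HES and HEY proteins restrain or that act beside them, 6 of 13 were tested, and 2 rose and 2 fell from sh-Ptbp1-3d to sh-Ptbp1-7d. For this count and the marker counts below, 20.3% of all genes rose and 15.5% fell. DLX1 and DLX2, homeobox factors of forebrain interneurons, rose by 1.16 (adjusted p = 5.41e-06) and 1.33 (adjusted p = 8.20e-04). ID1, an inhibitor of proneural factors and a target of BMP signalling, fell by 1.33 (adjusted p = 3.60e-06). Its relatives ID3 and ID2 were named after their values were seen. ID3 fell by 0.42 (adjusted p = 0.00569). ID2 went the other way without passing (0.63, adjusted p = 0.0290), and it rose relative to sh-Luci-3d (0.81, adjusted p = 0.00876). Markers of cell identity moved from sh-Ptbp1-3d to sh-Ptbp1-7d. VIM fell by 1.91 (adjusted p = 9.79e-08) and CD44 fell by 1.41 (adjusted p = 1.12e-06), while S100B, a glial calcium-binding protein, rose from 0.115 to 0.797 FPKM (2.08, adjusted p = 0.00202), giving 1 up and 3 down of 8 tested glioma and astroglial markers. Of 9 tested neuronal markers 1 rose and 3 fell, the latter being neuronal tubulin TUBB3 (-1.42, adjusted p = 6.91e-07) and the neurofilaments NEFL (-1.22, adjusted p = 3.65e-07) and NEFM (-1.53, adjusted p = 4.38e-04). The riser was MAP2, a dendritic protein named after its values were seen (0.94, adjusted p = 5.81e-04). The protein of TUBB3 is stained as TUJ1 in the study, which reports most U251 cells with the PTBP1 hairpin as positive at 7 days. That is a share of cells by protein and the values here are RNA levels, and they were not compared. CDH5, a defining endothelial marker, fell from 0.392 to 0.0271 FPKM (-1.91, adjusted p = 0.00244), and 0 of 2 tested immune markers passed in limma (2 at an unadjusted p below 0.05, against 56.3% of all genes). The S100B call was lost without sh-Ptbp1-7d replicate 1 (adjusted p = 0.0104) and the CDH5 call without sh-Ptbp1-7d replicate 2 (0.0108) or sh-Ptbp1-3d replicate 1 (0.0133), and other settings also ended both. The part of these shifts, and of the neuronal signal of sh-Ptbp1-3d replicate 3, in the values of the Notch genes was not tested.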

How the data were processed

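Total RNA of U251 cells was sequenced in 9 libraries. Per the labels and the study's methods, the authors aligned reads to GRCh38 with HISAT2, added loci assembled by StringTie, and deposited FPKM per gene; the program that gave FPKM, its version and the use of strand are not given in the sources used here. The deposited coordinates of assembled loci (another file) were used only to check that none overlapped the Notch genes. Genes averaging 0.1 FPKM or more were tested on log2(FPKM + 0.1) with limma 3.58.1 (R 4.3.3, empirical Bayes with trend, all 9 libraries in 1 fit) and Benjamini-Hochberg adjustment over 15551 genes. Single values such as ratios were compared by exact two-sided permutation in scipy 1.17.1. Depth is unknown from FPKM, so no counting interval is given. The Notch genes and the lists were chosen with earlier results of these data known. Besides the 10 genes, PTBP1 and their family, up to 4 genes of each list were named, those past the FDR and a fold of 2 from sh-Ptbp1-3d to sh-Ptbp1-7d by lowest adjusted p, filled to 2 by the FDR alone. Genes like DLL1 and DLL3 were ranked by Pearson r. Tested on simulated data for the step from sh-Ptbp1-3d to sh-Ptbp1-7d (15551 genes), 64% of 100 genes changed by 1 on the log2 scale and 98% of those changed by 2 were recovered, with 1 false call. At 3 days these were 75% and 100%, with 11 false calls, and for sh-Ptbp1-7d relative to the control 79% and 94%, with 0. The changed genes were drawn from those averaging at least 1 FPKM, and all other genes were simulated without a change between groups. In the measured data 5570, 5 and 5540 genes passed in the same order, so these percentages are not the power of the measured comparisons. Nor do they cover JAG2 and DLL3, which averaged 0.918 and 0.579 FPKM. Promoter windows came from RefSeq and gene positions from GENCODE 29. Alternatives covered the pseudocount, the filter, TPM, median-ratio and quantile scaling, the groups fitted, the trend, a replicate block and each library left out. A fit corrected for GC content and length was added after the data were seen, with values for 85.7% of tested genes.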

Additional observations from a re-analysis of the deposited data

How the results depend on the processing

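The counts of Notch genes past the FDR were 0 at 3 days in all 17 alternatives, and stayed within 1.5 times 5 against sh-Luci-3d. Over these alternatives 0% to 6.37% of all genes passed at 3 days, and 21% to 43.5% against sh-Luci-3d. From sh-Ptbp1-3d to sh-Ptbp1-7d, the count of 5 became 3 with a mean of at least 1 FPKM, where JAG2 and DLL3 are no longer tested and 42.2% of all genes passed. It was also 3 with any 1 library left out, where 27.5% to 30.8% of all genes passed. The count of 4 past a fold of 2 became 2 with a pseudocount of 1, 2 with TPM, and 2 to 3 with 1 library left out, 2 being the value without sh-Ptbp1-7d replicate 3. For the alternatives, the share of all genes past both thresholds is not given here. DLL1, HEY1 and JAG1 passed the FDR in all 17 alternatives. JAG2 was lost in 8 of 16 and DLL3 in 10 of 16 (adjusted p 4.61e-04 to 0.0230 and 0.00147 to 0.0326). From sh-Ptbp1-3d to sh-Ptbp1-7d NOTCH1 passed in 2 of 17 (adjusted p 0.00452 to 0.0701) and HES1 in 2 of 17 (adjusted p 0.00677 to 0.333), while against sh-Luci-3d it was lost with median-ratio scaling (adjusted p 0.0117). JAG2 passed against sh-Luci-3d with the GC and length correction (adjusted p 0.00333). With 1 library left out, changes at 3 days that turned were NOTCH2 (-0.17 to 0.02, positive at 0.022 and 0.023 without sh-Luci-3d replicate 1 or 2), JAG1 (-0.12 to 0.0044, positive without replicate 2) and DLL1 (-0.17 to 0.033, positive without replicate 3). HEY2 ranged from -0.13 to 0.59 at 7 days relative to sh-Ptbp1-3d, the negative value arising when sh-Ptbp1-3d replicate 3 was dropped. Calls from sh-Ptbp1-3d to sh-Ptbp1-7d were also lost for S100B (adjusted p 0.0393 with a pseudocount of 0.01, 0.0114 with no filter), CDH5 (0.0121 with a pseudocount of 1, 0.01005 with no filter), EP300 (0.0127 with no filter), MIB1 (0.0324 with no filter, 0.0287 with TPM, 0.0171 with no trend) and POGLUT1 (0.0338 with median-ratio scaling, 0.0675 with quantile scaling, 0.0531 with the GC and length correction, 0.0120 with the replicate block). The cause of these changes was not tested where the alternative itself does not show it.

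Quantile scaling moved the median change of all genes from 0.09 to -0.01 from sh-Ptbp1-3d to sh-Ptbp1-7d and from 0.10 to -0.01 against sh-Luci-3d, where the split of all calls was 2721 up and 2979 down in place of 3209 and 2331, and no called Notch gene turned direction under any scaling. The count of all genes past the FDR at 3 days was 5, and ranged from 0 to 993 over the alternatives. Same-numbered libraries of different groups had correlations of -0.02 to 0.06 in their deviations, and differently numbered ones of -0.12 to 0.16. Whether equal numbers mark a shared culture or batch is not given in the labels. With the replicate block 0, 5 and 5 Notch genes passed in the 3 comparisons, against 0%, 34.2% and 34.7% of all genes, and 0, 4 and 3 also passed the fold. Low values limit DLL3, JAG2 and NOTCH3 most, since FPKM carries no depth from which their precision could be set.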
